A study of Mus musculus with 6 samples.

Results

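Chemokines are small secreted proteins that direct the movement of leukocytes. They bind G protein-coupled receptors on the moving cell and are cleared by atypical receptors that take up the ligand without classical G protein signalling. In the wall of an artery they draw monocytes, neutrophils and lymphocytes, and the pair of *Cxcl12* with its receptors also acts in vessel growth and repair. The genes described here are the 58 genes, of 55341 in the count table, whose symbol names a Ccl, Cxcl or Cx3cl1 ligand, a Ccr, Cxcr or Cx3cr1 receptor, or an atypical receptor (Ackr). They comprise 37 ligand genes and 21 receptor genes, 4 of which are atypical.

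RNA of aortic arch and thoracic aorta was sequenced from 3 miRNA-26b-/- and 3 miRNA-26b+/+ mice of 8 weeks of age on chow diet, and the strain is labelled C57BL/6NCrl. In the miRNA-26b-/- mice the stretch of intron 4 of *Ctdsp1* that encodes miRNA-26b was floxed in 129/Sv embryonic stem cells and removed by a tamoxifen-induced Cre that was later bred out, and both the 5p and the 3p arm are lost. What any 129/Sv sequence still linked to the locus contributes cannot be told apart from the deletion. The labels call the samples endothelial cells, but the 10 endothelium markers summed to 549 to 1884 CPM (read counts scaled to the size of the library) per library, against 31340 to 42220 CPM for the 7 smooth muscle markers, as in whole aorta. The libraries held 25706728 to 33345037 counts.

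The libraries differed in cell type markers. Here and in what follows, values of 6 libraries are given for miRNA-26b-/- replicates 1, 2 and 3 against miRNA-26b+/+ replicates 1, 2 and 3. Summed endothelium markers were at 549, 555 and 1884 CPM against 1310, 1789 and 1590 CPM. Summed over 14 macrophage markers the levels were 382, 462 and 1151 CPM against 674, 763 and 766 CPM. Both lists were thus lowest in miRNA-26b-/- replicates 1 and 2 and highest in miRNA-26b-/- replicate 3. Sympathetic neuron markers summed to 429 CPM in miRNA-26b-/- replicate 2 and to 71.8 CPM in miRNA-26b+/+ replicate 2, against 16.5 to 33.4 CPM in the other libraries. In bulk RNA fewer cells of a type cannot be told apart from less RNA per cell.

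A miRNA acts through its seed, bases 2 to 8, which pairs with matching bases in the 3′ UTR of a transcript. The mature sequences are shown because the seed decides which chemokine transcripts carry a match, with the seed in capitals (RefSeq, GRCm38.p6).
mmu-miR-26b-5p: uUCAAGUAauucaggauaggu
mmu-miR-26a-5p: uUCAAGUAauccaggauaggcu
mmu-miR-26b-3p: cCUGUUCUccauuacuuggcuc
mmu-miR-26a-2-3p: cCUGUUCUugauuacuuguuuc
The 5p arms of miR-26b and of its relative miR-26a, which comes from other chromosomes, have the same seed. Counted from the 5′ end of miR-26b-5p they differ by U11C and U21C over the 21 bases of miR-26b-5p, with 1 further base at the end of miR-26a-5p. The 3p arm of miR-26b has the same seed as that of miR-26a-2.

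Of the 58 genes, 56 had an annotated 3′ UTR, with a median length of 784.5 bases against 961 for all 21007 genes. A match to the 5p seed (TACTTGA, or ACTTGAA with the A opposite base 1) was present in 6 of the 56 (10.7%), against 18.3% of all genes. The 8-base match that joins the pair was present in 0 of the 56, against 4.18% of all genes. The 6 transcripts with a match are shown with 10 bases on either side and the match in capitals, in mm10 coordinates of the match.
Ccl20 (chr1:83118334-83118340, plus strand): agtcaatagcTACTTGAttcttgtgga
Ccl3 (chr11:83648100-83648106, minus strand): gggactcttcACTTGAAattttattta
Ccr3 (chr9:124031525-124031531, plus strand): ttggaagagtTACTTGAgagtgtgact
Ccr9 (chr9:123781808-123781814, plus strand): tgtttttaatTACTTGAtaaatttatc
Cxcl11 (chr5:92359648-92359654, minus strand): taatttcagcACTTGAAaggcagaggc
Cxcl3 (chr5:90787693-90787699, plus strand): cctattcttaACTTGAAggttagagat
None of these 6 genes had enough counts in the aorta to be tested. *Ccl20*, *Cxcl11* and *Cxcl3* had no count in any library, *Ccr3* and *Ccr9* had counts in 1 library each, and *Ccl3* had 41 counts in miRNA-26b-/- replicate 3 and 27 in miRNA-26b+/+ replicate 3. Conversely, 0 of the 30 genes that could be tested carried a match to the 5p seed. Matches to the 3p seed were not searched, so sites for that arm are not known here.

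Genes entered the comparison of the genotypes when they had more than 1 CPM in at least 2 libraries. This filter passed 30 of the 58 genes, 20 ligands and 10 receptors. A further 15 had some counts, and 13 had none in any library, among them the neutrophil attractants *Cxcl3* and *Cxcl15*, the T cell attractant *Ccl17*, and *Ccl4*. A count of 0 allows up to 3 counts, which is 0.0893 to 0.117 CPM per library. Counts in all 6 libraries were found for 21 of the 58 genes. Sparse genes came in clumps, since 21 genes had no count in a library and at least 20 counts in another. *Ccr10*, a receptor for *Ccl27a*, had 115 counts in miRNA-26b+/+ replicate 2 and 0 in each of the other 5 libraries, and *Ccr7*, the receptor that guides cells to lymph nodes, had 46 counts in miRNA-26b-/- replicate 1 alone. Of the tested members, 9 of 30 (30%) had a library at 0, compared with 14.34% of all tested genes.

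Per kilobase of exon, the highest levels were those of 2 genes of 1 axis. *Ackr3*, the scavenging receptor for CXCL12, averaged 30.2 CPM per kilobase over the 6 libraries (range 9.15 to 38.8), and *Cxcl12*, the homeostatic ligand that holds progenitor cells and lymphocytes in their niches, averaged 20.1 CPM per kilobase (range 18.3 to 23.7). Their ranges overlapped, and *Ackr3* was below *Cxcl12* in miRNA-26b-/- replicate 1 alone. Together both genes made up 58.97% of the mean CPM of all 58 genes. *Ccl6*, an attractant made by macrophages, followed at 14.2 CPM per kilobase, then the eosinophil attractant *Ccl11* at 12.1, *Ccl21a* at 9.34, *Ccl9* at 8.53, *Cx3cl1* at 6.41, *Ccl19* at 6.35, *Cxcl16* at 5.95 and *Ccl24* at 3.16. Neighbours in this order from *Ccl6* down overlapped in their ranges over the libraries. *Cxcl12* and *Cx3cl1* stood above their signalling receptors per length in every library. The ratio of *Cxcl12* to its signalling receptor *Cxcr4* was 6.51 to 22.5 in the 6 libraries, and that of *Cx3cl1* to *Cx3cr1* was 2.53 to 16.5.

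**Figure D1:**
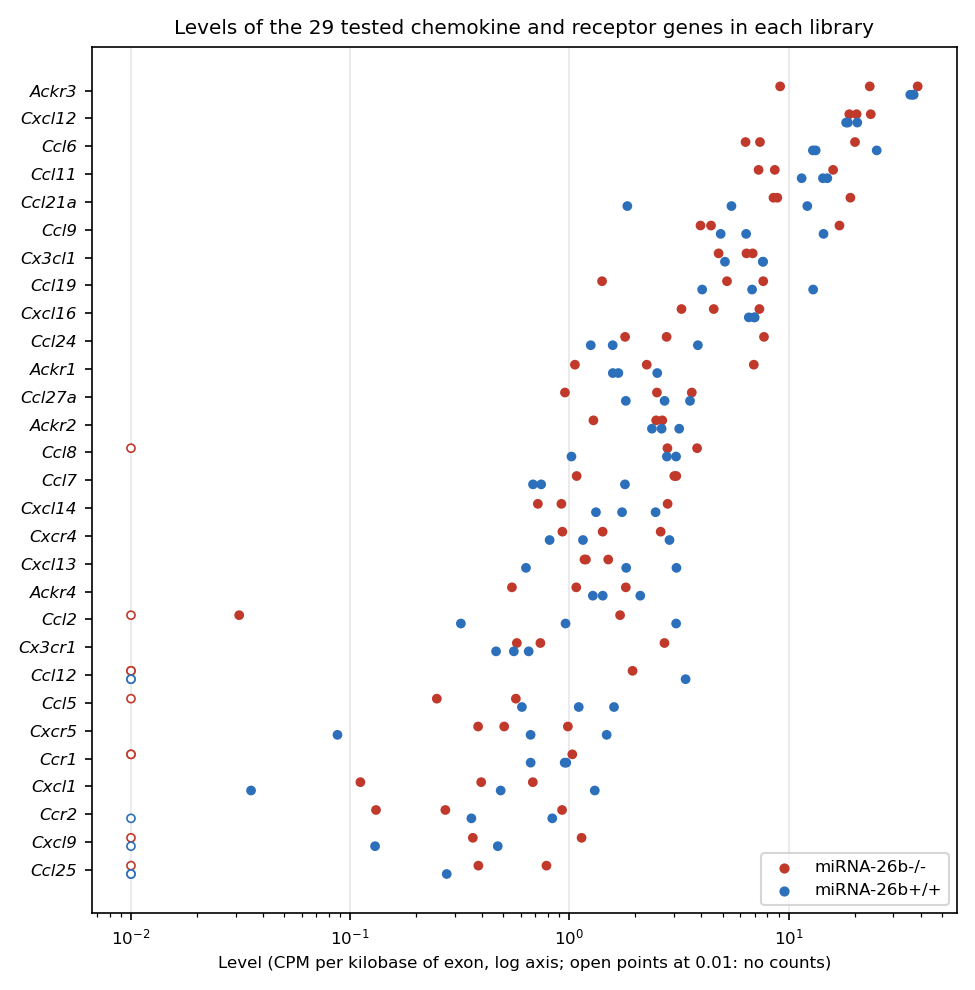
Levels of 29 of the 30 tested genes in CPM per kilobase of exon (log axis), ordered by their mean over the 6 libraries, with 1 point per library, red for miRNA-26b-/- and blue for miRNA-26b+/+. Open points at the left edge stand for libraries with no count, and *Ackr3* and *Cxcl12* lie at the top.

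In the comparison of the genotypes with edgeR's quasi-likelihood test, 0 of the 30 genes had an unadjusted p-value under 0.05, where 6.47% of all 16017 tested genes did. After Benjamini-Hochberg adjustment the count was 0 of 30, against 0.00624% of all genes (1 gene). DESeq2 gave 0 and limma voom 1 of the 30 at the unadjusted threshold, and both gave 0 after adjustment. The log2 fold change of miRNA-26b-/- against miRNA-26b+/+ was above 0 for 11 genes and below 0 for 19, with a median of -0.217, where the median over all tested genes was 0.0125. The errors were wide. The median standard error of the 30 was 0.721 on the log2 scale, against 0.34 for all tested genes. The 95% confidence interval stayed within a change of 1 in either direction on the log2 scale for *Cxcl12* and *Cx3cl1* only, and it included both 1 and -1 for 12 of the 30, for which neither a doubling nor its reverse can be told from no change. The p-values set the difference between the genotypes against the spread of these 6 libraries within each genotype. That spread was estimated with information shared over all tested genes.

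**Figure D2:**
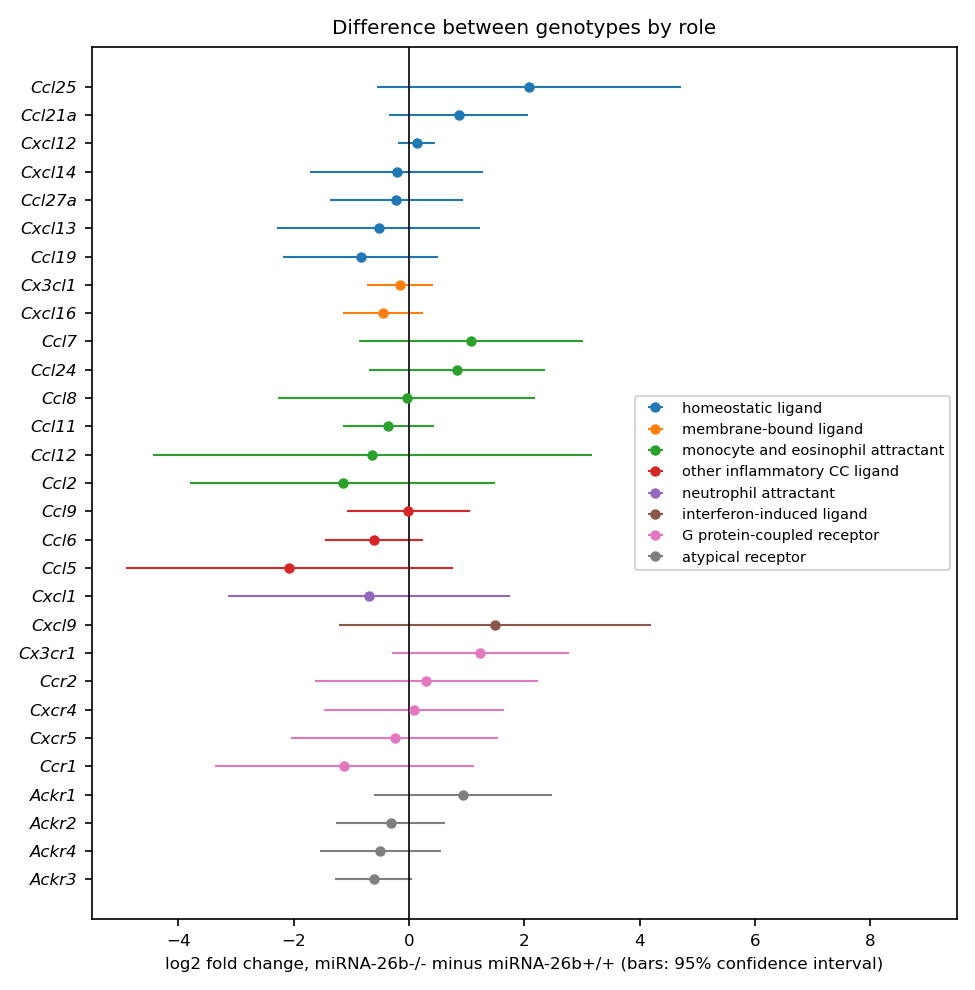
The log2 fold change (miRNA-26b-/- minus miRNA-26b+/+) of 29 of the 30 tested genes by role, with points for the estimate of edgeR and bars for its 95% confidence interval. Every interval includes 0, and the intervals of *Cxcl12* and *Cx3cl1* are the narrowest.

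Among the homeostatic ligands, which are made without inflammation, 7 of 11 were tested. *Cxcl12* (chr6:117168535-117181367) was at 155, 167 and 194 CPM against 149.6, 152 and 168 CPM. The groups overlapped, and the log2 fold change of 0.13 had a 95% confidence interval of -0.19 to 0.45. *Ccl21a* and *Ccl19*, ligands of CCR7 that are made by lymphatic and lymph node cells, lie beside each other on chromosome 4. *Ccl21a* was at 16.7, 7.42 and 7.73 CPM against 1.599, 4.77 and 10.6 CPM (log2 fold change 0.86, interval -0.35 to 2.07), lowest in miRNA-26b+/+ replicate 1. Without miRNA-26b+/+ replicate 3 its log2 fold change was 1.72 (unadjusted p = 0.02622, adjusted p = 0.9828, edgeR), while it was 0.40 without miRNA-26b+/+ replicate 1 and 0.42 without miRNA-26b-/- replicate 1 (unadjusted p = 0.4861 and 0.5258, edgeR). *Ccl19* was at 6.64, 1.22 and 4.54 CPM against 5.91, 3.498 and 11.2 CPM (log2 fold change -0.83, interval -2.18 to 0.51). So these ligands of 1 receptor had estimates of opposite sign, and neither passed the test. Markers of lymph node stroma and follicles summed to at most 1.599 CPM in every library, with *Madcam1* and *Glycam1* at 0. The 5 lymphatic endothelium markers summed to 32.5 to 56.3 CPM, with estimates above 0 for 2 and below 0 for 3. *Reln* was at a log2 fold change of 0.94 and *Flt4* at -1.0 (unadjusted p = 0.02484 and 0.05205, adjusted p = 0.736 and 0.7694, edgeR). *Prox1* was at 0.117, 3.01 and 0 CPM against 0.881, 2.55 and 1.82 CPM. *Prox1* was thus low in miRNA-26b-/- replicate 1, where *Ccl21a* was highest. *Pdpn* (4.73 CPM) and *Flt4* (4.025 CPM) were low in that library too, while *Mmrn1* (12.62 CPM) and *Reln* (11.02 CPM) were not. The part of lymphatic content in the level of *Ccl21a* was not tested. *Ccl21a* and *Ccl27a* have near-identical copies (*Ccl21b* and *Ccl27b*, both at 0 counts), and how reads were split among copies makes their levels uncertain. *Ccl25*, known as an attractant of gut and thymus, had counts of 0, 96 and 165 against 0, 0 and 62, and its exons share 204 bases with *Elavl1*.

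*Cx3cl1* and *Cxcl16* are the ligands made as membrane proteins, which endothelial cells and macrophages display and shed. *Cx3cl1* was at 18.8, 25.3 and 27.0 CPM against 20.1, 29.99 and 30.1 CPM (log2 fold change -0.16, interval -0.73 to 0.41). Per 100 CPM of endothelium markers it was at 3.43, 4.55 and 1.43 CPM against 1.54, 1.68 and 1.89 CPM, highest in miRNA-26b-/- replicates 1 and 2, and the part of endothelial content was not tested. *Cxcl16* was at 13.8, 9.81 and 22.2 CPM against 21.2, 21.1 and 19.9 CPM (log2 fold change -0.46, interval -1.15 to 0.24). The control libraries lay close together, while miRNA-26b-/- replicates 1 and 2 were lower and replicate 3 was the highest of all. Per 100 CPM of endothelium markers *Cxcl16* was at 2.51, 1.77 and 1.18 CPM against 1.61, 1.18 and 1.25 CPM. On that scale miRNA-26b-/- replicates 1 and 2 were the highest, and the part of endothelial content was not tested. With miRNA-26b-/- replicate 3 left out, 1692 of 15654 tested genes were below the unadjusted threshold. In that fit the log2 fold change of *Cxcl16* was -0.84 (unadjusted p = 0.02472, adjusted p = 0.3672, edgeR), and without miRNA-26b-/- replicate 2 it was -0.19 (unadjusted p = 0.5825, edgeR). Its exons share 552 bases with *Zmynd15* on the opposite strand, which had 26, 26 and 146 against 41, 78 and 175 counts, and reads were counted without a strand setting. *Adam10* and *Adam17*, the proteases that shed both ligands, were at log2 fold changes of -0.07 and 0.12 with unadjusted p = 0.7065 and 0.5803 in edgeR's quasi-likelihood test. *Cx3cr1*, the fractalkine receptor of monocytes and macrophages, was at 3.32, 2.59 and 12.2 CPM against 2.94, 2.51 and 2.09 CPM. The log2 fold change of 1.24 (interval -0.29 to 2.77) rested on miRNA-26b-/- replicate 3, the library highest in 12 of the 14 macrophage markers, and was 0.21 without it. Without miRNA-26b-/- replicate 2 it was 1.66 (unadjusted p = 0.03107, adjusted p = 0.8568, edgeR). Per 100 CPM of those markers *Cx3cr1* was at 0.87, 0.561 and 1.06 CPM against 0.436, 0.329 and 0.272 CPM, a ratio that was chosen after its values were seen and was not tested. *Cxcr6*, the receptor of CXCL16, had counts of 21, 0 and 33 against 6, 19 and 0.

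**Figure D3:**
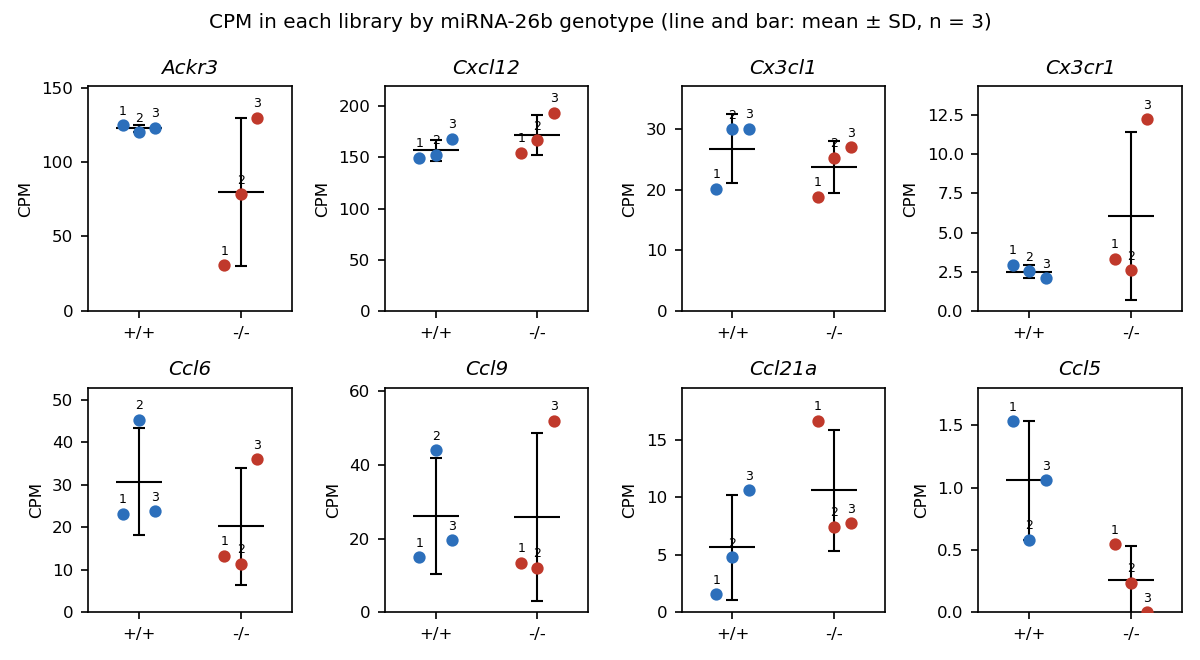
CPM of 8 genes in each library, blue for miRNA-26b+/+ and red for miRNA-26b-/-, numbered by replicate, with lines and bars for the mean ± SD (n = 3 per genotype). *Ackr3* is within 120.2 to 125 CPM in the controls and spreads from 30.6 to 129.9 CPM in the miRNA-26b-/- libraries. The groups of *Ccl5* alone are separate, and it passed the filter through miRNA-26b+/+ libraries only.

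The attractants of monocytes and eosinophils were 7 genes, of which 6 were tested. *Ccl11*, the eotaxin of fibroblasts and smooth muscle, was at 7.89, 9.36 and 17.3 CPM against 16.3, 15.5 and 12.4 CPM (log2 fold change -0.36, interval -1.14 to 0.43), with miRNA-26b-/- replicate 3 the highest and replicates 1 and 2 the lowest. *Ccl24*, a further eotaxin, was at 3.60, 2.33 and 10 CPM against 4.99, 2.04 and 1.62 CPM (log2 fold change 0.83, interval -0.69 to 2.35), again highest in miRNA-26b-/- replicate 3, without which the value was -0.02. Their shared receptor *Ccr3* had 34 counts in miRNA-26b+/+ replicate 3 and none elsewhere. *Ccl2*, the main attractant of inflammatory monocytes, was low and uneven, with 0, 65 and 1 counts against 107, 30 and 11 counts. Its receptor *Ccr2* had 47, 210 and 25 counts against 74, 155 and 0 counts, so the highest library of each genotype was the second. *Ccl2*, *Ccl7*, *Ccl11*, *Ccl12*, *Ccl8* and *Ccl1* lie within 270.1 kb on chromosome 11. Of the 5 tested, *Ccl7* alone had an estimate above 0 (log2 fold change 1.07, interval -0.87 to 3.01).

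A second cluster on chromosome 11 spans 138.9 kb and holds *Ccl5*, *Ccl9*, *Ccl6*, *Ccl3* and *Ccl4*. *Ccl6* and *Ccl9*, neighbours that macrophages and other myeloid cells express and that act through CCR1, were among the most abundant members. *Ccl6* (chr11:83587882-83593087) was at 13.3, 11.4 and 36.1 CPM against 23.2, 45.3 and 23.9 CPM (log2 fold change -0.60, interval -1.46 to 0.25). *Ccl9* (chr11:83572919-83578636) was at 13.5, 12.1 and 52.0 CPM against 14.9, 44.0 and 19.5 CPM (log2 fold change -0.01, interval -1.07 to 1.06). In both genes miRNA-26b-/- replicate 3 and miRNA-26b+/+ replicate 2 were the highest and miRNA-26b-/- replicates 1 and 2 the lowest. With miRNA-26b-/- replicate 3 left out, 1692 of 15654 tested genes were below the unadjusted threshold. In that fit the log2 fold changes were -1.31 for *Ccl6* (unadjusted p = 0.00244, adjusted p = 0.1635, edgeR) and -1.02 for *Ccl9* (unadjusted p = 0.03126, adjusted p = 0.3978, edgeR). Without miRNA-26b+/+ replicate 2 they were -0.22 for *Ccl6* and 0.58 for *Ccl9*, and without miRNA-26b-/- replicate 2 they were -0.29 and 0.37. Per 100 CPM of macrophage markers *Ccl6* was at 3.48, 2.47 and 3.13 CPM against 3.44, 5.93 and 3.12 CPM, so that miRNA-26b+/+ replicate 2 stayed the highest while miRNA-26b-/- replicate 3 no longer stood apart. *Ccl9* on the same scale was at 3.53, 2.61 and 4.51 CPM against 2.21, 5.76 and 2.55 CPM. The part of macrophage content in these levels was not tested.

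The sequence upstream of this pair is shown because both genes were high and low in the same libraries. Each holds the core ACTTCC of ETS factors (GGAAGT on the other strand), in capitals, within the 250 bases before its start in RefSeq (GRCm38.p6, minus strand).
Ccl6 (chr11:83593129-83593149): attcttggccctccACTTCCt
Ccl9 (chr11:83578637-83578657): cacctttgccctccACTTCCc
The 13 bases that end with this core are identical in both genes, 42 bases before the start of *Ccl6* and 1 base before that of *Ccl9*. *Ccl9* also holds a match to the kappaB consensus, in capitals, 25 bases before its start.
Ccl9 (chr11:83578653-83578680): ttgaactttGGAAAGCCCCaagtcacct
Searched on both strands, GGAAGT was present in 34.9% of the 43 members with a promoter entry and in 22.2% of 27025 genes. The kappaB consensus was present in 20.9% (9 genes, *Ackr2*, *Ccl20*, *Ccl9*, *Ccr3*, *Ccr6*, *Cxcl1*, *Cxcl10*, *Cxcl2* and *Cxcl3*) against 4.46%, and TATAAA in 30.2% against 14.3%. Such a match is a description of the letters and not evidence of binding.

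*Ccl5*, which T cells, platelets and macrophages release, was the only member whose groups did not overlap, where 11.5% of all tested genes had groups without overlap. It had 14, 8 and 0 counts against 47, 16 and 32, or 0.547, 0.239 and 0 CPM against 1.53, 0.583 and 1.06 CPM. The nearest libraries of both groups were thus 0.547 and 0.583 CPM. *Ccl5* passed the filter of over 1 CPM only through miRNA-26b+/+ replicates 1 and 3, in the group where it is high. Its separation is therefore no support for a difference, and with either of these libraries left out it was not tested. The log2 fold change was -2.08 (interval -4.91 to 0.76), and an exact permutation test of the CPM (two-sided) gave p = 0.1, the smallest that 3 against 3 allows. T cell and NK cell markers summed to 10.7 to 22.1 CPM against 10.02 to 12.9 CPM, with *Cd3e*, *Ncr1* and *Klrb1c* at 0 in every library. *Cd247*, a chain of the T cell receptor complex, was at 17.6, 9.39 and 6.74 CPM against 3.53, 8.89 and 4.80 CPM. It made up most of the summed markers in every miRNA-26b-/- library and in miRNA-26b+/+ replicate 2. Of the 12 markers in this list 6 were tested, 4 with estimates above 0 and 2 below. *Cd3g* had 0, 1 and 0 counts against 31, 0 and 61, and *Cd8a* had 0, 0 and 0 against 23, 0 and 56. *Cd4* had 0, 0 and 91 counts against 32, 28 and 0, and *Cd28* had 0, 23 and 50 against 34, 0 and 0. The part of T cells in the level of *Ccl5* was not tested. *Ccr1*, a receptor of CCL5, CCL6 and CCL9, had 0, 98 and 0 counts against 84, 74 and 57 counts. Libraries at 0 thus stood beside one of the same genotype with 98 counts, and it did not pass the test (unadjusted p = 0.3071, edgeR).

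Neutrophil attractants had few counts. *Cxcl1* had 19, 7 and 36 counts against 75, 25 and 2 counts (log2 fold change -0.70, interval -3.14 to 1.75) and was the only 1 of 5 to be tested. *Cxcl2* had 23 and 37 counts and *Cxcl5* 24 counts in miRNA-26b+/+ libraries alone, and *Cxcr2*, their receptor, had 47, 0 and 0 against 16, 22 and 0 counts. Neutrophil markers summed to 1.80, 3.04 and 6.31 CPM against 8.29, 15.7 and 20.6 CPM. Of these 8 markers 4 were tested, all with estimates below 0, and *S100a9*, a calcium-binding protein of neutrophils, was below the unadjusted threshold (log2 fold change -2.13, unadjusted p = 0.01338, adjusted p = 0.736, edgeR). The interferon-induced T cell attractants were equally sparse. *Cxcl9* had 28, 115 and 0 counts against 12, 39 and 0, *Cxcl10* had 26 counts in 1 library, and *Cxcl11* had none. Their receptor *Cxcr3* had 56 counts in miRNA-26b-/- replicate 3 and 17 in miRNA-26b+/+ replicate 2.

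All 4 atypical receptors were tested. *Ackr3* (chr1:90203980-90216751) was at 30.6, 78.5 and 129.9 CPM against 125, 120.2 and 123 CPM, with means of 79.7 ± 49.7 and 122.6 ± 2.21 CPM (SD, n = 3 each). The controls were close together, and miRNA-26b-/- replicates 1 and 2 lay below all of them while replicate 3 lay above. The log2 fold change of -0.61 (interval -1.29 to 0.06) had the smallest p-value of the 30 members (unadjusted p = 0.07188, adjusted p = 0.782, edgeR). With miRNA-26b-/- replicate 3 left out, 1692 of 15654 tested genes were below the unadjusted threshold. In that fit the log2 fold change of *Ackr3* was -1.13 (unadjusted p = 0.0004663, adjusted p = 0.0695, edgeR), and without miRNA-26b-/- replicate 1 it was -0.25 (unadjusted p = 0.2634, edgeR). Per 100 CPM of endothelium markers *Ackr3* was at 5.58, 14.2 and 6.89 CPM against 9.51, 6.72 and 7.74 CPM, so the groups overlapped and miRNA-26b-/- replicate 2 was then the highest. Endothelium markers had estimates below 0 for 9 of 10 genes, and *Tek*, an endothelial receptor kinase, was below the unadjusted threshold (log2 fold change -1.0, unadjusted p = 0.03781, adjusted p = 0.745, edgeR). The part of endothelial content in the level of *Ackr3* was not tested. The ratio of *Cxcl12* to *Ackr3* per length was 2.07, 0.871 and 0.611 against 0.492, 0.519 and 0.56, higher in each miRNA-26b-/- library than in every control. It was formed after the values were seen and was not tested.

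*Ackr1*, the Duffy receptor of venular endothelium and red cells, had 3.17, 9.75 and 1.49 CPM against 2.35, 3.54 and 2.22 CPM (log2 fold change 0.93, interval -0.61 to 2.48), and was highest in miRNA-26b-/- replicate 2, the library rich in sympathetic neuron markers, without which the value was -0.22. Its exons share 361 bases with *Cadm3* on the same strand, so reads of either gene can count for it. *Ackr2*, which clears inflammatory CC ligands, was at 4.03, 7.78 and 8.30 CPM against 7.44, 9.91 and 8.24 CPM (log2 fold change -0.32, interval -1.26 to 0.63). *Ackr4*, which clears CCL19 and CCL21, was at 9.73, 5.78 and 2.94 CPM against 7.64, 11.3 and 6.88 CPM (log2 fold change -0.50, interval -1.55 to 0.55), and 479 of its exon bases lie in *Acad11* on the opposite strand.

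**Figure D4:**
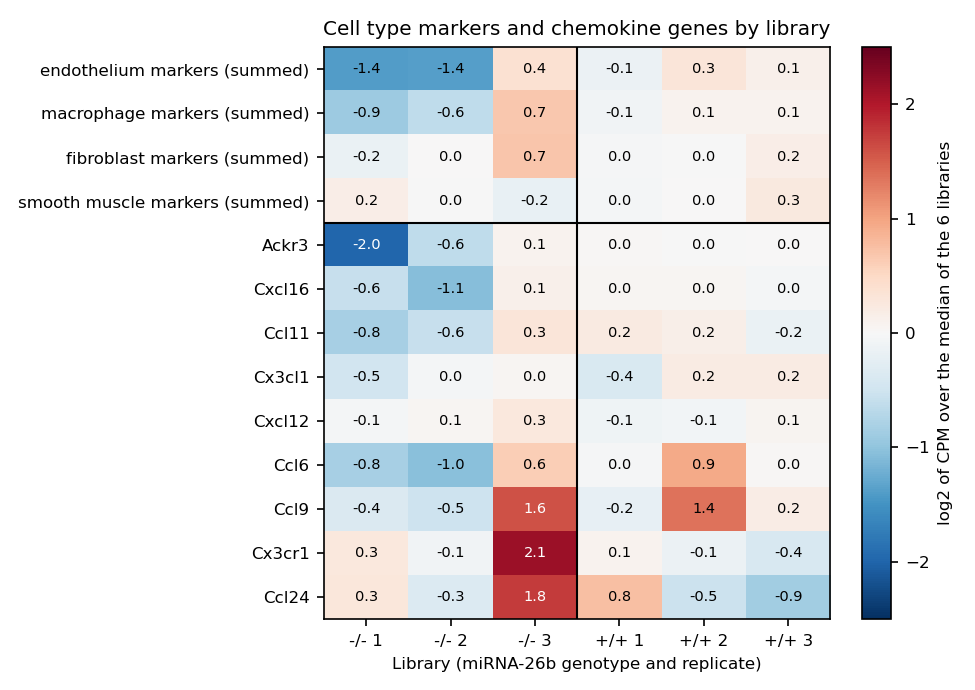
Heat map of summed cell type markers (upper 4 rows) and of 9 chemokine system genes (lower rows) in the 6 libraries, as log2 of CPM over the median of the libraries. *Ackr3*, *Cxcl16*, *Ccl11*, *Cx3cl1*, *Ccl6* and *Ccl9* are below the median in miRNA-26b-/- replicates 1 and 2, where the summed endothelium and macrophage markers are too. *Cx3cr1* and *Ccl24* are above it in miRNA-26b-/- replicate 1 and below it in replicate 2, and *Cxcl12* stays within 0.27 of its median.

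Because the deleted stretch is on chromosome 1 (*Mir26b*, chr1:74394310-74394394, in an intron of *Ctdsp1*), the 6 members of that chromosome are given by their distance. *Cxcr1* at 199.7 kb and *Cxcr2* at 233.1 kb are the closest, and *Ccl20* follows at 8.72 Mb, none with enough counts to be tested. *Ackr3* lies 15.8 Mb away, *Cxcr4* 54.2 Mb and *Ackr1* 98.9 Mb. *Cxcr4* was at 1.68, 2.56 and 4.72 CPM against 1.47, 5.17 and 2.09 CPM (log2 fold change 0.08, interval -1.48 to 1.64). *Mir26b* itself had 20 counts in miRNA-26b+/+ replicate 2 and 0 in the other 5 libraries, so the hairpin cannot check the labels in these libraries.

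The signalling genes downstream of the receptors were well expressed, with estimates on either side of 0. Of 51 genes for G protein subunits, receptor kinases, arrestins, regulators of G protein signalling and migration kinases, 48 were tested, 25 with estimates above 0 and 23 below, and their median log2 fold change was 0.01. *Rac2*, the GTPase of blood cells that drives their migration, was the only 1 of the 48 below the unadjusted threshold, where 6.47% of all tested genes were (8.48, 8.23 and 7.16 CPM against 4.24, 2.70 and 2.35 CPM, log2 fold change 1.35, unadjusted p = 0.02022, adjusted p = 0.736, edgeR). Its groups did not overlap, as in 11.5% of all tested genes. Without miRNA-26b+/+ replicate 2 or 3 the unadjusted p of *Rac2* was 0.05718 and 0.06464 in edgeR, and without both libraries rich in sympathetic neuron markers it was 0.09969. Of 22 inducers of chemokine genes, 17 were tested and 0 were below the unadjusted threshold in edgeR. *Tnf*, *Il6*, *Ifng* and *Il17a* had no count in any library, and *Nfkbia*, an inhibitor and target of NF-kappaB, was at 41.4, 51.5 and 84.9 CPM against 47.9, 99.99 and 60.7 CPM. Of the genes of related proteins that the symbols leave out, 5 of 7 were tested and 0 were below it, among them the atypical receptor *Ccrl2* at 8.01, 10.5 and 15.1 CPM against 15.99, 17.1 and 16.2 CPM (log2 fold change -0.54, unadjusted p = 0.1293, edgeR). Of 5 enzymes and chemokine-like ligands 0 were below it. No gene of these lists passed after adjustment.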

How the data were processed

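Per the file headers, the authors deposited raw read counts per gene, assigned by featureCounts 1.6.4 to the exons of each gene name of GENCODE M21 (mm10), without a strand setting and with the option that lets a read count for every gene it overlaps. The study's methods name STAR for alignment and GENCODE M23. A second deposited table of log2 CPM, the authors' own fold changes and p-values was not used here. A gene was kept with 2 or more counts in all and over 1 CPM in 2 or more libraries, and kept genes were normalised by TMM and tested with edgeR 4.0.16 (quasi-likelihood test, two-sided, prior count 0.125, R 4.3.3), with Benjamini-Hochberg adjustment over all 16017 genes. The standard error was the log2 fold change divided by the square root of F. DESeq2 1.42.0 and limma 3.58.1 (voom) were alternatives. Counting intervals and floors of 3 counts cover counting error only, because PCR copies of a molecule were not marked. The search for seed matches used 1 annotated 3′ UTR per gene, the longest in GENCODE M21. The members, roles and gene lists were chosen with earlier results of these data known. Values per library are given for members that passed a threshold or did not overlap, the 10 with the highest CPM per kilobase, those on chromosome 1, and those with a library over 4 times the median and a mean of at least 1 CPM. Other members named with values were chosen after these were seen. Levels are TMM-normalised CPM and the procedure was tested on simulated data. The values of 1 tested member are not reported here and it is left out of the plots, while counts over the members include it.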

Additional observations from a re-analysis of the deposited data

How the results depend on the processing

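The count of members past an adjusted p of 0.05 was 0 in every alternative run (normalization, tool, filter, prior count and leaving out libraries). At an unadjusted p under 0.05 it was 0 except with limma voom (1 of 30, *Ackr3*, log2 fold change -0.82, where 847 of 16017 genes passed), without both libraries rich in sympathetic neuron markers (1 of 27, *Ccr1*, then at 0 in the miRNA-26b-/- libraries left, where 607 of 15181 genes passed), and in leaving out single libraries, where it ranged from 0 to 4. The 4, of 29 tested, came without miRNA-26b-/- replicate 3, where 1692 of all 15654 tested genes passed. They were *Ackr3* (-1.13), *Ccl6* (-1.31), *Ccl9* (-1.02) and *Cxcl16* (-0.84). The 2 of 29 without miRNA-26b-/- replicate 2, where 898 of 15598 genes passed, were *Cx3cr1* (1.66) and *Ccr1* (-9.12). The 2 of 28 without miRNA-26b+/+ replicate 3, where 686 of 15726 genes passed, were *Ccl21a* (1.72) and *Ccl25* (9.44). In this fit *Ccl25* was at 0 in the miRNA-26b+/+ libraries left, and *Ccr1* in both of its fits was at 0 in the miRNA-26b-/- libraries left. Each then passed the filter only through the genotype with counts, so these calls are no support for a difference. The 1 of 30 without miRNA-26b-/- replicate 1, where 904 of 15698 genes passed, was *Ccl25* (2.59). Why these calls came and went was not tested. All genes past that threshold, 1036 in the reported fit, ranged from 686 to 1692 without single libraries (1692 without miRNA-26b-/- replicate 3, 686 without miRNA-26b+/+ replicate 3) and were 607 without the libraries rich in neuron markers, a setting chosen after seeing the data. The pathway genes past this threshold, from lists with 48, 17, 5 and 5 tested genes, were 1 in the reported fit. They were 2 with DESeq2, 5 with limma voom and 3 with robust shrinkage, where 840, 847 and 1014 of 16017 genes passed. Their count was 0 without the libraries rich in neuron markers. Without single libraries it was 0 to 9 (9 without miRNA-26b-/- replicate 3, 5 without miRNA-26b-/- replicate 1, 0 without miRNA-26b+/+ replicate 3). The median log2 fold change of the members stayed between -0.262 and -0.075. The sign turned for *Ccl9* with library size normalization (0.01), without miRNA-26b-/- replicate 1 (0.27) or 2 (0.37), without miRNA-26b+/+ replicate 2 (0.58) and without the libraries rich in neuron markers (0.95, where *Ccl6* was at 0.09). Without single libraries its values ranged from -1.02 to 0.58. The sign also turned for *Ackr1* (-0.22, range -0.22 to 1.35) and *Cxcl9* (-0.15, range -0.15 to 3.03) without miRNA-26b-/- replicate 2, for *Cxcr4* without miRNA-26b-/- replicate 3 (-0.38) or miRNA-26b+/+ replicate 1 (-0.25) or 3 (-0.11), with a range of -0.38 to 0.76, for *Ccl24* without miRNA-26b-/- replicate 3 (-0.02, range -0.02 to 1.51) and for *Ccl2* without miRNA-26b+/+ replicate 1 (0.08, range -6.19 to 0.08, the lower end fitted on 0 and 1 counts). Over 17 named members and all alternatives, 263 of 285 values kept sign and side of the threshold. No paired analysis was possible because the labels give no replicate numbers. The log2 fold change of *Ackr3* ranged from -1.13 to -0.25 without single libraries, that of *Ccl6* from -1.31 to -0.22, that of *Cxcl16* from -0.84 to -0.19 and that of *Ccl21a* from 0.40 to 1.72. For sparse members a count of 0 stood beside 98 or more counts in libraries of like size, and how far depth limits them was not tested.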
